A study of Mus musculus with 13 samples.

Results

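The genes described are the glucocorticoid receptor Nr3c1, the hormone-activating enzyme gene Hsd11b1 and 7 genes that the receptor induces in many tissues, namely Tsc22d3, Fkbp5, Per1, Klf9, Zbtb16, Sgk1 and Pdk4. They were taken by symbol, and all 9 of 9 were found among the 27998 genes of the matrices. The choice was made with the P0 genotype difference and the differences between ages of these genes already known, so both are given below as descriptions with no p. Genotype differences at E14.5 and E16.5 did not serve in the choice and were tested.

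Single-cell RNA-seq libraries of mouse back skin were made from C57BL/6 wild-type (WT) embryos and newborns and from Grhl3-/- (KO) animals, with 2 libraries for each genotype at each of E14.5, E16.5 (E, embryonic day) and P0 (P, postnatal day), and with 1 more P0 WT library made with an earlier version of the reagents. Grhl3 encodes a transcription factor of terminal epidermal differentiation, and its loss leaves the skin barrier of the newborn incomplete. The KO lacks Grhl3 in the whole animal and not in the skin alone. WT and KO animals were littermates, all KO embryos had spina bifida, and the skin was taken from the upper back, away from that defect. At P0 the epidermis was peeled off after a night in the protease Dispase, whereas at E14.5 and E16.5 the whole skin was dissociated after 2 hours. Age, tissue and dissociation therefore cannot be told apart between P0 and the earlier ages, and the methods give the last stage as E18.5 or P0 where the labels give P0.

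Glucocorticoids are steroid hormones of the adrenal cortex. In cells that contain it, 11beta-hydroxysteroid dehydrogenase type 1, the product of Hsd11b1, regenerates active hormone from its inert form. The hormone releases the glucocorticoid receptor from a complex of heat shock proteins and co-chaperones in the cytoplasm, and the receptor moves to the nucleus, where it binds response elements made of inverted 6-base repeats and raises or lowers transcription nearby. Fetal glucocorticoid rises toward birth and matures lung, gut and skin, where it is known to hasten formation of the epidermal barrier. The induced genes include a brake on the receptor (Fkbp5), transcription factors (Klf9, Zbtb16) and a repressor of the circadian clock (Per1). Others are a mediator of anti-inflammatory action (Tsc22d3, also called GILZ) and enzymes of ion transport and fuel choice (Sgk1, Pdk4).

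Promoter sequences are shown for 4 induced genes because their letters hold a match to the response element, its hexamer or the clock element. Windows of 300 bases, from 250 before to 50 after each annotated start, were taken from RefSeq on GRCm38.p6 and read 5′ to 3′ on the strand of the gene. Searched on both strands were the palindromic receptor element, which is AGAACA, any 3 bases and TGTTCT, its hexamer TGTTCT or AGAACA, and the E-box CACGTG that CLOCK and BMAL1 recognise. Capitals mark matches, and positions count from 1 at the 5′ end.
Sgk1, chr10:21993640-21993939, plus strand: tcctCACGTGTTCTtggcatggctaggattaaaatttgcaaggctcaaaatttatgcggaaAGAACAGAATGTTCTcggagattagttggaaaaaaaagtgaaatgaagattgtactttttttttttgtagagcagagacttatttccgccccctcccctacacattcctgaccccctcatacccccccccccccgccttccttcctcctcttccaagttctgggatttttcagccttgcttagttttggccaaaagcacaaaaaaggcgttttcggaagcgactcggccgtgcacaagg
Per1, chr11:69098699-69098998, plus strand: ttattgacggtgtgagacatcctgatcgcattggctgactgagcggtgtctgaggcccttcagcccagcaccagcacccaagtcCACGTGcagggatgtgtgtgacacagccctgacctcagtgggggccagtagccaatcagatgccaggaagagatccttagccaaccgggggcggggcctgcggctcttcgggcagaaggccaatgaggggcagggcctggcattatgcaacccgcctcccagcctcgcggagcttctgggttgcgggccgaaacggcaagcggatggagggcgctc
Fkbp5, chr17:28486100-28486399, minus strand: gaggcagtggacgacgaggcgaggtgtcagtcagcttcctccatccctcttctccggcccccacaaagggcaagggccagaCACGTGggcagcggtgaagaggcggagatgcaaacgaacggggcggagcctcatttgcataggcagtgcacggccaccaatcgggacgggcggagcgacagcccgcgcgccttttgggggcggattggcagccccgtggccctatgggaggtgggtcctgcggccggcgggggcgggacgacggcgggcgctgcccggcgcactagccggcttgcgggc
Tsc22d3, chrX:140600473-140600772, minus strand: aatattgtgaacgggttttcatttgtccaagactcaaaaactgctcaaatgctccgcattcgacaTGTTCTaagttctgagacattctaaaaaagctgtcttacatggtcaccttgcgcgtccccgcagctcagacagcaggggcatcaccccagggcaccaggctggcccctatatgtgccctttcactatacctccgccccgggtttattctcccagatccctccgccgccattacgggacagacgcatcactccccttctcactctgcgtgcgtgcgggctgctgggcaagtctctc
The Sgk1 window held the whole palindrome at position 62, whose ends are themselves hexamers at 62 and 71, and a further hexamer at 9 that overlaps the E-box at 5. The Per1 window held an E-box at 85 and the Fkbp5 window one at 82. The Tsc22d3 window held a hexamer at 66. Over the 32851 mouse promoter windows of this length the whole palindrome was present in 3, or 0.00913%, a hexamer in 19% and the E-box in 7.15%. Windows were given for 7 of the 9 members, 15 windows in all, of which 1 held the palindrome, 4 a hexamer and 3 an E-box. Zbtb16 had no window, and none is printed for Nr3c1. A match describes the letters of the window and not a bound site, and a window with no match says nothing of the receptor.

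Cells were grouped by clustering that left out the listed genes and Grhl3, and a class is called by the marker genes its clusters carried, with the suffix "-like". In all 86507 cells were kept, with 49195602 to 105580896 unique molecular identifiers (UMIs, the counted mRNA molecules) a library, and levels are UMIs scaled to the total of the class in that library (counts per 1000000, CPM). Leaving aside the library made with the earlier reagents, 52146 of 81449 cells fell in a named class. The unnamed share of a library was 33.4% to 53.05% before birth and 24.47% to 26.25% at P0. Unnamed cells enter only the values over all cells. Grhl3 itself was at 7.0 and 8.29 CPM in the P0 WT libraries over all cells and at 2.42 and 2.81 CPM in the P0 KO libraries, so counted reads remained in KO. At E16.5 it was at 4.03 and 6.65 CPM in WT and at 1.47 and 0.693 CPM in KO, but at E14.5 the libraries labelled WT, at 4.42 and 7.3 CPM, and those labelled KO, at 4.08 and 9.89 CPM, overlapped. In suprabasal-like cells, where its level was higher, it was at 84.8 and 108 CPM in WT and at 59 and 61.8 CPM in KO at E14.5. The sources used here do not say whether the Grhl3 reads counted in KO lie outside the deleted part. Xist, the transcript of the inactive X, was at 970 to 1310 CPM in WT library 2 at E14.5, in both WT libraries and KO library 2 at E16.5, and at 12.5 CPM or less in the other 9 libraries, where the Y-linked Ddx3y was at 38.7 to 55.7 CPM. All 5 P0 libraries thus carried the male transcripts, whereas both E16.5 WT libraries carried the female ones, and sex moves with age in WT. The methods describe a male and a female in every group, which these transcripts match only in E14.5 WT and E16.5 KO. The part of sex was not tested, and Tsc22d3 lies on the X chromosome. The P0 WT library of the earlier chemistry stands apart from the other 12, has no replicate and enters no test. At most 131 cell barcodes were shared between any 2 libraries.

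The glucocorticoid receptor was present in every class and age. Nr3c1 lies on chromosome 18. In basal-like cells, the proliferative layer of the epidermis marked by Krt14 and Krt5, it was at 70.6 and 74.7 CPM in P0 WT and at 65.7 and 69.3 CPM in P0 KO. In hair follicle-like cells it was at 68.2 and 72.2 CPM in WT and at 69.0 and 63.2 CPM in KO. Levels in WT were thus highest in basal-like and hair follicle-like cells, which overlapped, and had their lowest mean in inner root sheath-like cells, at 28.9 and 29.8 CPM. Over 7 classes the KO to WT difference at P0 lay between -0.43 and 0.21 on the log2 scale. The KO values were below both WT values in 5 of 7 classes and overlapped in 2. Of all genes tested 26.3% to 42% in a class were likewise lower without overlap. The first P0 WT library had 55.4 CPM in basal-like cells, 1.31-fold below the mean of the later WT libraries.

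Hsd11b1 had its highest levels in T cell-like cells. The gene lies at chr1:193221634-193264075. In T cell-like cells of the P0 epidermis, a class fixed on Cd3g, Cd3d, Cd3e, Nkg7, Trdc and Cd7, it was at 79.4 and 130 CPM in WT and at 115 and 159 CPM in KO, and the genotypes overlapped. No other class of the later P0 libraries exceeded 2.96 CPM, the level in KO fibroblast-like cells of library 1. Transcripts free in the suspension add UMIs to every class, and their part was not measured here. The first P0 WT library had 345 CPM in T cell-like cells, above all 4 later libraries, and 21.2 CPM in sebaceous-like cells. Before birth, where T cell-like cells did not reach the minimum of 50 in a library, endothelial-like cells held the most, with 5.11 and 9.20 CPM in WT at E16.5.

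**Figure D1:**
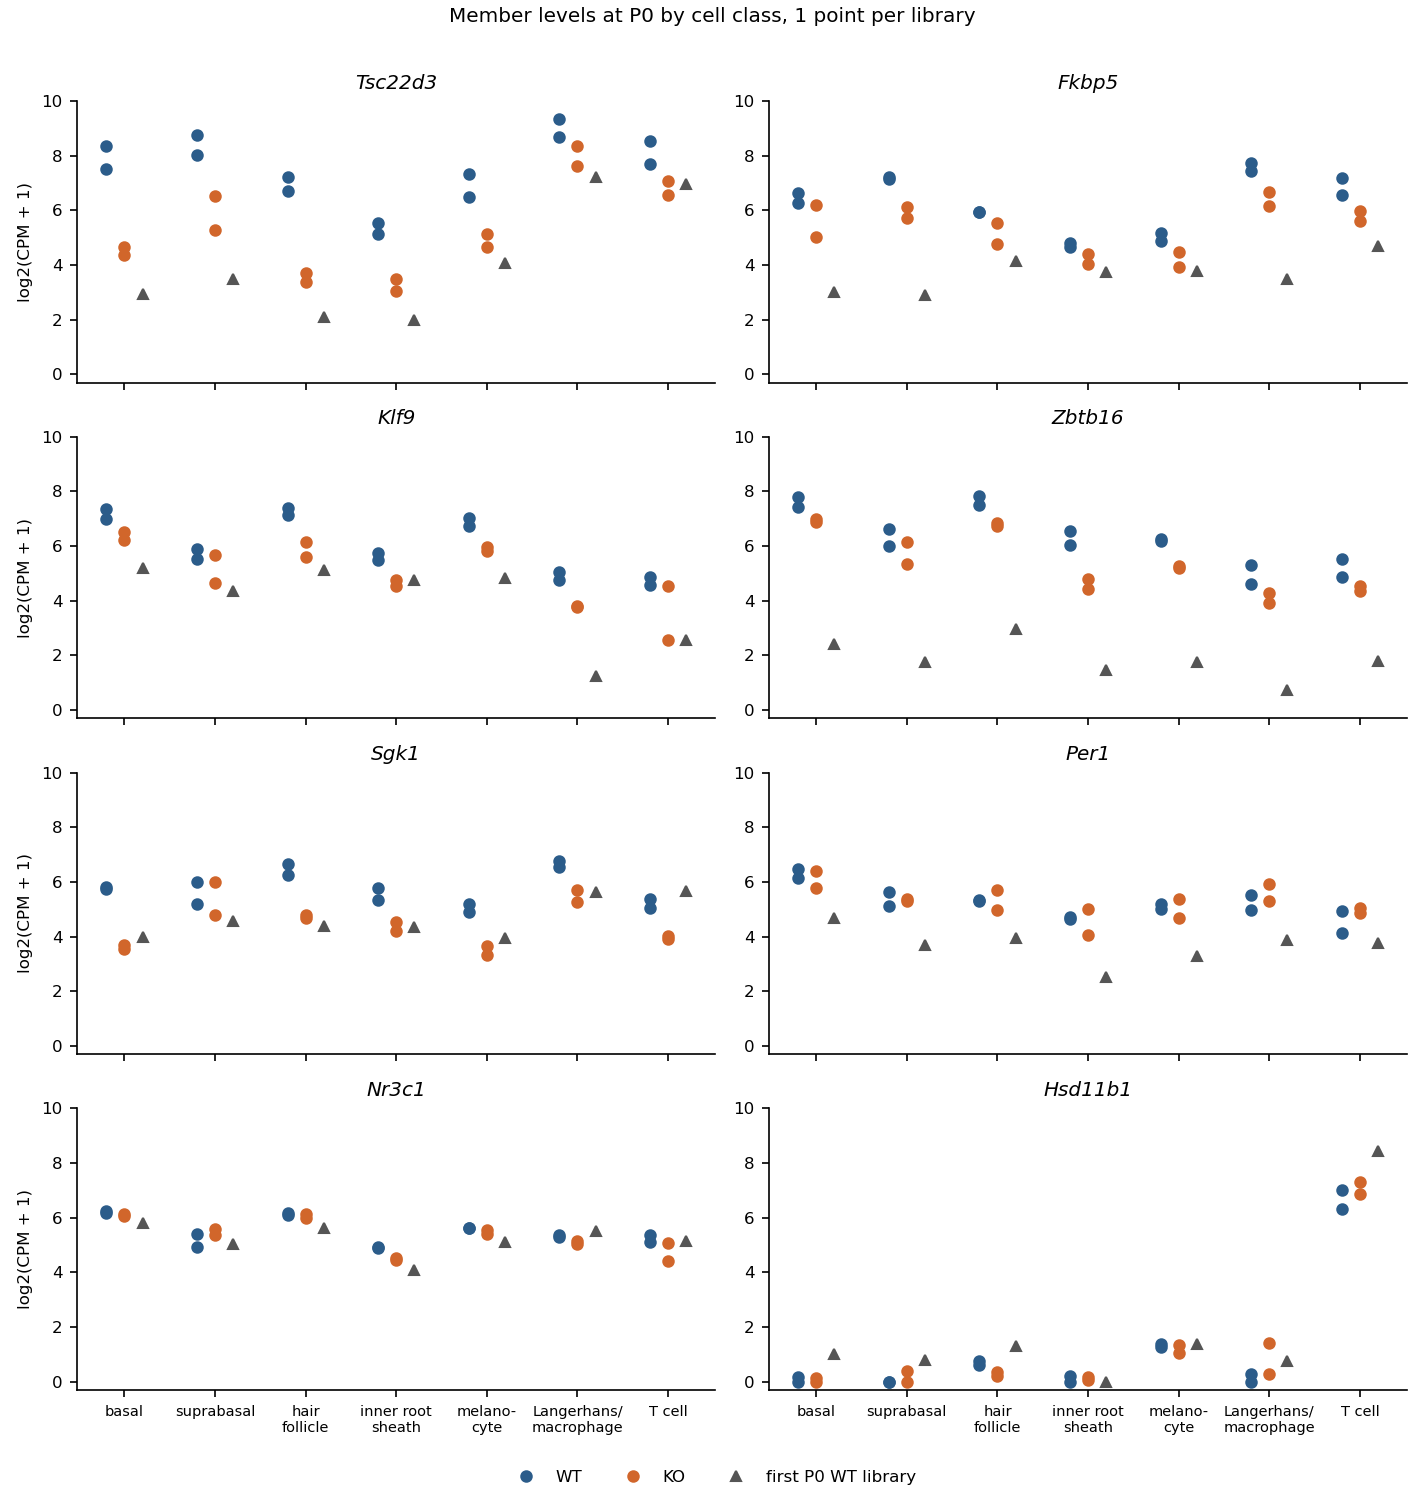
Levels of the members other than Pdk4 at P0 by cell class, as log2(CPM + 1), with 1 point a library for WT, KO and the first P0 WT library of the earlier chemistry. Tsc22d3 sits higher in both later WT libraries than in both KO libraries in all 7 classes, while Nr3c1 and Per1 lie close together across genotypes and the first P0 WT library lies below the KO libraries for Zbtb16 in every class.

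Tsc22d3 was lower in KO at P0 in epidermal and immune classes alike, and in the keratinocyte and melanocyte-like classes its fitted difference was the widest of the members. The gene, at chrX:140539528-140600659, encodes the leucine zipper protein GILZ, which restrains NF-kappaB and AP-1. In basal-like cells it was at 182 and 322 CPM in WT and at 24.4 and 19.8 CPM in KO, a log2 difference of -3.49 (SE 0.25). In hair follicle-like cells it was at 103 and 147 CPM in WT and at 11.9 and 9.45 CPM in KO, a difference of -3.43 (SE 0.19). The WT mean was 11.4-fold above the KO mean in basal-like and 11.7-fold above it in hair follicle-like cells. In suprabasal-like cells, the differentiating layers marked by Krt1 and Krt10, it was at 257 and 432 CPM in WT and at 37.5 and 91.2 CPM in KO, a difference of -2.47 (SE 0.42) that ran from -3.34 without KO library 2 to -1.90 without KO library 1. In melanocyte-like cells it was at 89.7 and 160 CPM against 34.3 and 24.2 CPM, and in inner root sheath-like cells at 34.1 and 45.8 CPM against 10.1 and 7.29 CPM. The log2 differences of these classes were -2.02 (SE 0.26) and -2.09 (SE 0.21).

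In the immune cells of the epidermis the log2 difference in Tsc22d3 was nearer to 0, although their KO levels were above those of every keratinocyte class. Langerhans or macrophage-like cells had 412 and 641 CPM in WT and 194 and 327 CPM in KO, a log2 difference of -0.89 (SE 0.24). T cell-like cells had 206 and 373 CPM in WT and 93.2 and 133 CPM in KO, a difference of -1.29 (SE 0.26). Without KO library 2 the Langerhans or macrophage-like value was -1.32, without KO library 1 -0.55 and without WT library 2 -0.55, so its size rests on single libraries. In WT the order of classes ran from Langerhans or macrophage-like through suprabasal-like and T cell-like to basal-like cells, with overlap between each pair of neighbours, and inner root sheath-like cells were lowest and separate from the rest. WT library 2 was above WT library 1 in 8 of 8 classes, by 1.34-fold to 1.81-fold, a spread between libraries that every class shared.

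Fkbp5 and Klf9 were also lower in KO. Fkbp5, at chr17:28399094-28517527, encodes the co-chaperone FKBP51, which lowers the affinity of the receptor for hormone. In suprabasal-like cells it was at 142 and 149 CPM in WT and at 68.7 and 51.4 CPM in KO, a log2 difference of -1.36 (SE 0.19). In Langerhans or macrophage-like cells it was at 211 and 172 CPM in WT and at 102 and 70.8 CPM in KO, a difference of -1.02 (SE 0.16). In basal-like cells it was at 76.2 and 97.2 CPM in WT and at 72.9 and 31.9 CPM in KO, so that KO library 1 lay just under WT. That difference of -0.67 (SE 0.27) became -1.52 without KO library 1 and -0.22 without KO library 2, and in hair follicle-like cells -0.66 (SE 0.20) became -1.16 and -0.37. KO library 2 was below KO library 1 for Fkbp5 in 8 of 8 classes, at 0.43 to 0.783 of its level. Klf9, at chr19:23141226-23168134, encodes a Krüppel-like factor that slows proliferation of keratinocytes. It was at 141 and 166 CPM in hair follicle-like cells of WT and at 48.2 and 70.2 CPM in KO, a difference of -1.25 (SE 0.16). In basal-like cells it was at 126 and 165 CPM in WT and at 73.0 and 91.3 CPM in KO, a difference of -0.86 (SE 0.14).

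Zbtb16 and Sgk1 separated the genotypes in every class but the suprabasal-like cells. Zbtb16, at chr9:48654297-48836222, encodes the zinc finger repressor PLZF. It was at 170 and 220 CPM in basal-like cells of WT and at 117 and 128 CPM in KO, a difference of -0.69 (SE 0.16), and at 65.6 and 92.4 CPM against 26.7 and 20.5 CPM in inner root sheath-like cells, a difference of -1.63 (SE 0.19). Sgk1, at chr10:21882184-21999903, encodes a kinase that raises sodium and glucose uptake. In basal-like cells it was at 56.0 and 53.0 CPM in WT and at 10.7 and 12.1 CPM in KO, a difference of -2.28 (SE 0.16), and libraries of a genotype lay close together. In hair follicle-like cells it was at 99.7 and 75.6 CPM in WT and at 26.7 and 24.6 CPM in KO, a difference of -1.65 (SE 0.15). In suprabasal-like cells the genotypes overlapped for Sgk1 (35.7 and 63.0 CPM in WT, 26.7 and 63.7 CPM in KO), for Zbtb16 (63.8 and 97.4 CPM, 70.7 and 39.8 CPM) and for Klf9 (45.7 and 59.1 CPM, 50 and 24.2 CPM). The Sgk1 difference there was -0.19 (SE 0.39), and it lay at 0.38 without KO library 1, at -1.03 without KO library 2 and at 0.23 without WT library 2. For Zbtb16 and Klf9 the suprabasal-like differences of -0.62 and -0.58 ran from -1.0 to -0.33 and from -1.10 to -0.21 with KO library 1 or 2 left out.

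Per1 did not separate the genotypes, and Pdk4 was close to the limit of counting. Per1, at chr11:69095217-69109960, encodes a repressor of the circadian clock that the receptor also induces. It was at 69.1 and 88.0 CPM in basal-like cells of WT and at 54.6 and 84.0 CPM in KO, and WT and KO overlapped in 7 of 7 classes, with differences between -0.22 and 0.58. KO library 2 was above KO library 1 in 8 of 8 classes, by 1.04-fold to 2.0-fold. Pdk4, at chr6:5483351-5496309, encodes the kinase that shuts off pyruvate dehydrogenase when fat is burned. It had 34 UMIs in basal-like cells of the 2 later WT libraries together, or 2.4 and 1.71 CPM, and 5 UMIs in KO, or 0.169 and 0.331 CPM, a difference of -3.14 (SE 0.64). Its highest level at P0 was in sebaceous-like cells of WT, at 9.67 and 4.03 CPM, a class that did not reach 50 cells in KO.

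Over the 7 classes compared at P0, which leave out the unnamed cells, 5 induced members were below WT without overlap in 6 or 7. Pdk4 was so at its low counts in 6. Tsc22d3 and Fkbp5 were so in 7 of 7, and Klf9, Zbtb16 and Sgk1 in 6 of 7, beside 31.8% of all genes tested lower in KO without overlap in basal-like, 26.3% in suprabasal-like, 41.7% in hair follicle-like, 42% in inner root sheath-like, 35.6% in melanocyte-like, 35.8% in Langerhans or macrophage-like and 29.7% in T cell-like cells. In edgeR's quasi-likelihood fit 5 of the 8 members that passed the filter on low counts were past an adjusted p of 0.05 and lower in basal-like cells, beside 18.4% of all genes. The corresponding counts were 2 of 7 in suprabasal-like cells beside 12.4%, 5 of 7 in hair follicle-like cells beside 13.2%, 4 of 7 in inner root sheath-like cells beside 6.97%, 4 of 8 in melanocyte-like cells beside 3.61%, 4 of 7 in Langerhans or macrophage-like cells beside 5.45% and 0 of 8 in T cell-like cells beside 0.55%. As the members were chosen on this difference, nothing is read from these counts. The make-up of a class and marker levels within it moved with genotype. In the basal keratinocyte class a cluster held 60.3% and 60% of the cells in KO and 42.5% and 46.7% in WT. The part of this in the basal-like values was not tested. In the suprabasal keratinocyte class KO cells held the 7 basal markers, none at 0, at a sum of 12100 to 21500 CPM where WT held 3550 CPM, and the suprabasal markers at 30600 to 36200 CPM where WT held 56600 to 57300 CPM, and the part of this in the suprabasal-like values was not tested. The 15 listed genes of dissociation stress summed to 3370 and 3560 CPM in basal-like cells of WT and to 3600 and 4210 CPM in KO, and in Langerhans or macrophage-like cells to 1970 and 1990 CPM in WT and to 3230 and 4000 CPM in KO, a difference whose part was likewise not tested.

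**Figure D2:**
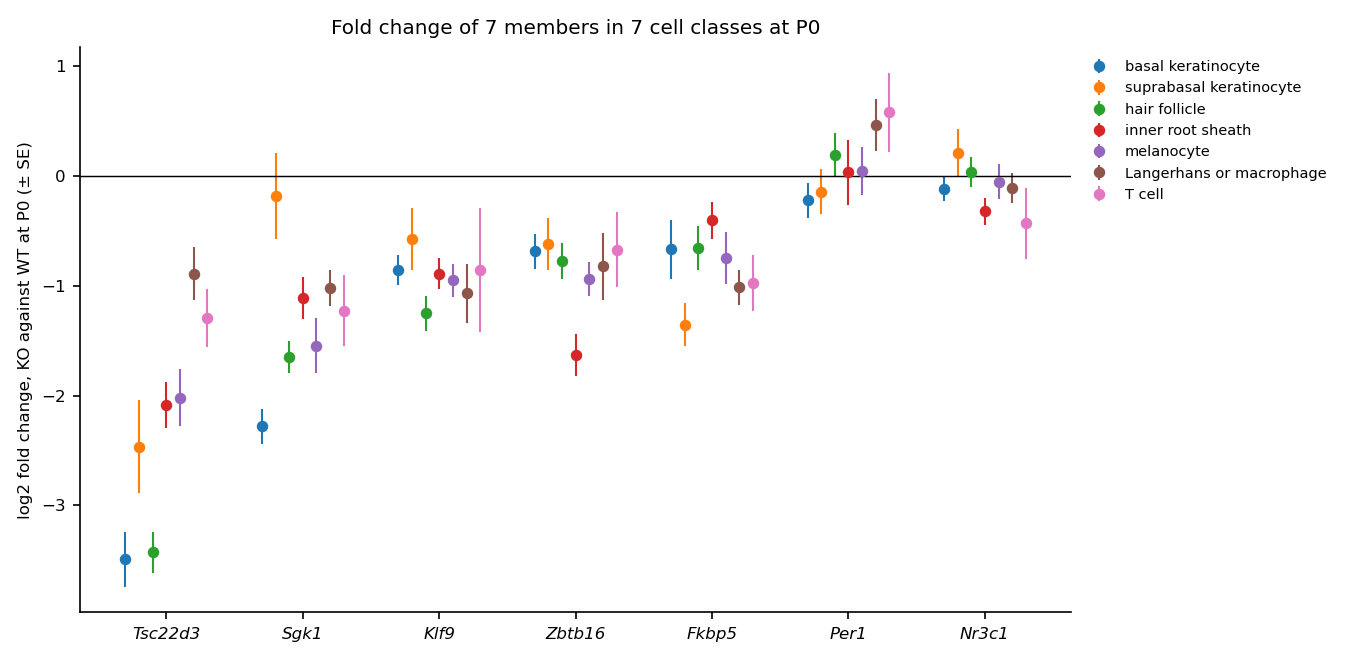
KO to WT log2 fold change at P0 of the members other than Pdk4 and Hsd11b1 in each cell class from the edgeR fit, with bars of 1 standard error and a line at 0. Tsc22d3 spans -3.49 to -0.89, Sgk1 reaches -2.28 in basal-like cells, and Per1 and Nr3c1 scatter around 0.

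The first P0 WT library, of the earlier chemistry, did not share the high WT levels. In its 1061 basal-like cells Tsc22d3 was at 6.76 CPM (95% exact Poisson interval 5.45 to 8.28, counting error only), 37.3-fold below the mean of the later WT libraries and also below both KO libraries. Zbtb16 was at 4.29 CPM (3.26 to 5.53), a 45.5-fold gap, and Fkbp5 at 7.05 CPM (5.72 to 8.60), a 12.3-fold gap. By the ratio of this library to the later WT libraries Zbtb16 had rank 4, Tsc22d3 rank 5 and Fkbp5 rank 12 from the lowest among 7655 genes. The gaps of Klf9, Sgk1 and Per1 were 4.07-fold, 3.64-fold and 3.19-fold. Its interval lay below both later WT libraries in 7 of 7 classes for Tsc22d3, Fkbp5, Klf9 and Zbtb16 and in 6 of 7 for Per1 and Sgk1. It lay below both KO libraries in 7 of 7 classes for Zbtb16, in 6 for Tsc22d3 and Per1 and in 5 for Fkbp5 and Klf9, while for Sgk1 it was below in 2 and above in 2. By CPM alone, with no interval, 48.3% of all genes were below both later WT libraries in basal-like, 39.2% in suprabasal-like and 42.6% in hair follicle-like cells. In basal-like cells 2.04% were at least 4-fold below them. No share of all genes below both KO libraries is set beside the counts of classes, so nothing is read from those counts.

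Chemistry, sequencing run and the biology of that animal cannot be told apart in this library, and the files do not show which of the 3 WT libraries at P0 is typical. Its basal-like cells held the stress genes of dissociation at 5150 CPM, above the other P0 libraries, and Malat1 and mt-Nd3 were also among its widest gaps. Of 25 other genes induced by the receptor and measured well enough, 18 were below both later WT libraries there and 7 were at least 4-fold below, with a median log2 ratio of -1.40. Their median ratio of KO to later WT was -0.90. The statements on WT and KO at P0 therefore rest on the 2 later WT libraries, and not all of them hold for the first. In its basal-like cells Tsc22d3, at 6.76 CPM, lay below both KO libraries, whereas Sgk1, at 15 CPM, lay above both.

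**Figure D3:**
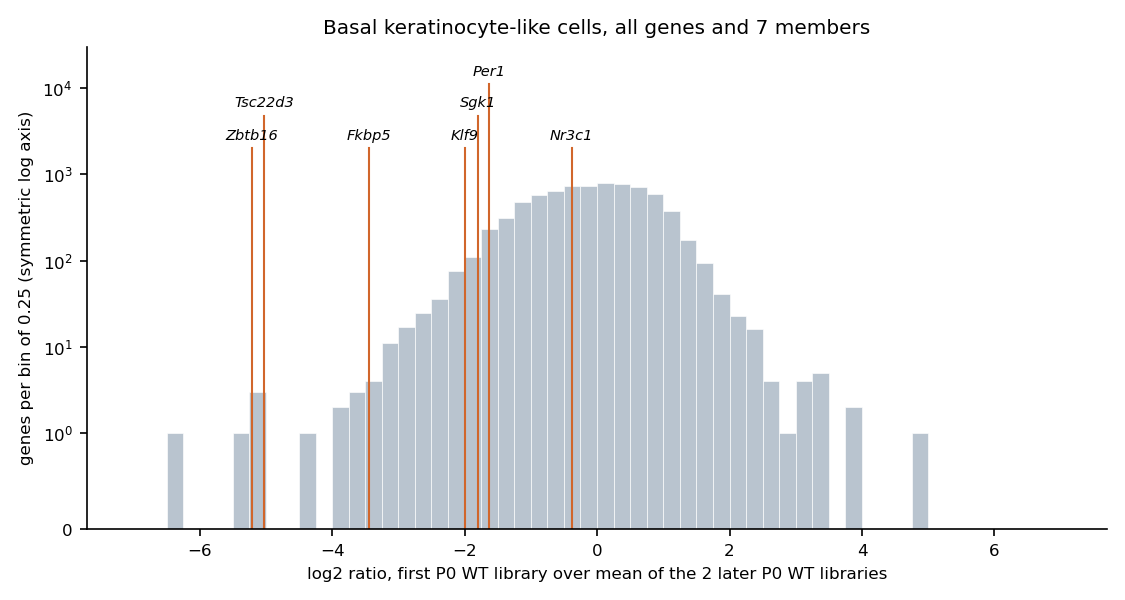
Log2 ratio of the first P0 WT library to the mean of the later P0 WT libraries over the genes ranked in basal-like cells, drawn as a histogram of genes per bin on a symmetric log axis, with 7 members marked by lines whose height has no meaning. Zbtb16, Tsc22d3 and Fkbp5 lie in the far left tail, at -5.21, -5.03 and -3.45, and Nr3c1 lies near the bulk of genes.

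In WT the 7 induced members were higher at P0 than at E16.5, without overlap, in each of the 5 classes measured at both ages, Pdk4 with only 3 to 35 UMIs a class at P0. Of all genes 40.6% in basal-like, 33.9% in suprabasal-like, 34.5% in hair follicle-like, 34.6% in melanocyte-like and 31.2% in Langerhans or macrophage-like cells were likewise higher without overlap. In basal-like cells Tsc22d3 went from 14.4 and 12.7 CPM at E16.5 to the P0 values above, a log2 difference of 4.21 (SE 0.27). Sgk1 went from 3.06 and 3.48 CPM, a difference of 4.03 (SE 0.19). Zbtb16 went from 17.6 and 17.6 CPM, a difference of 3.45 (SE 0.19), and Klf9 from 16.6 and 14.6 CPM, a difference of 3.21 (SE 0.16). Each of these 4 differences was above 3 on the log2 scale. Per1 differed by 1.89 (SE 0.17), from 22.2 and 19.9 CPM, Fkbp5 by 1.01 (SE 0.27), from 38.9 and 46.4 CPM, and the receptor by 0.75 (SE 0.11), from 43.0 and 42.4 CPM. Pdk4 had 4 UMIs at E16.5 and 34 at P0, a difference of 2.97 (SE 0.67), or 3.75 without E16.5 WT library 2. All 8 members that passed the filter were past the threshold and higher in this class, beside 30.1% of all genes, and nothing is read from that count since ages served in the choice.

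The same direction held over the 5 classes with enough cells at both ages. Klf9 differed by 2.35 to 3.56, Tsc22d3 by 1.34 to 4.21, Sgk1 by 1.31 to 4.03, Fkbp5 by 0.71 to 2.65 and Per1 by 0.80 to 1.89. Zbtb16 in melanocyte-like cells was at 0 in both E16.5 WT libraries and at 76.1 and 72.7 CPM at P0, at least 22.2-fold higher with 3 counts over the E16.5 libraries as the floor. In the other 4 classes Zbtb16 differed by 3.05 to 4.18, the highest in Langerhans or macrophage-like cells, where it was 4.98 without E16.5 WT library 1. The melanocyte-like values rested on 75 and 57 cells in the E16.5 WT libraries. Without E16.5 WT library 1 the melanocyte-like difference of Fkbp5 went from 1.86 to 2.71, and for Sgk1, at 5.88 and 0 CPM, the remaining E16.5 library was at 0. Fkbp5 in Langerhans or macrophage-like cells went from 33.1 and 34.1 CPM to 211 and 172 CPM, a difference of 2.65 (SE 0.18), while its difference in hair follicle-like cells was 0.71 (SE 0.23). The Langerhans or macrophage-like class, formed at each age on its own, did not hold the same cells at both ages. Cd207, the langerin gene of Langerhans cells, was at 0 in all 4 libraries at E16.5 and at 4.13 to 20.7 CPM in the 4 later P0 libraries, while the macrophage genes Mrc1 and F13a1, chosen after their values were seen, were at 808 and 875 CPM and at 1650 and 1730 CPM in E16.5 WT against 96.2 and 117 CPM and 12.2 and 15.4 CPM in P0 WT. A change within cells of a type and a change of cell type cannot be told apart in the values of this class between E16.5 and P0, in WT or in KO. The other classes were also formed at each age on its own, and the make-up of the hair follicle-like and melanocyte-like classes was not compared between ages. For Sgk1 in hair follicle-like cells the value of 1.31 (SE 0.17) depended on the grouping of cells and was -0.092 (SE 0.18) when clusters were drawn more coarsely. The receptor was near 0 in suprabasal-like and Langerhans or macrophage-like cells, at -0.03 and -0.07. The shares of all genes past the threshold and higher were 21.4% in suprabasal-like, 23.7% in hair follicle-like, 9.4% in melanocyte-like and 22.7% in Langerhans or macrophage-like cells. The first P0 WT library, with Tsc22d3 at 6.76, Zbtb16 at 4.29 and Fkbp5 at 7.05 CPM in basal-like cells, lay below the E16.5 WT libraries for these 3 genes, but above them for Klf9 at 35.8, Sgk1 at 15 and Per1 at 24.6 CPM.

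**Figure D4:**
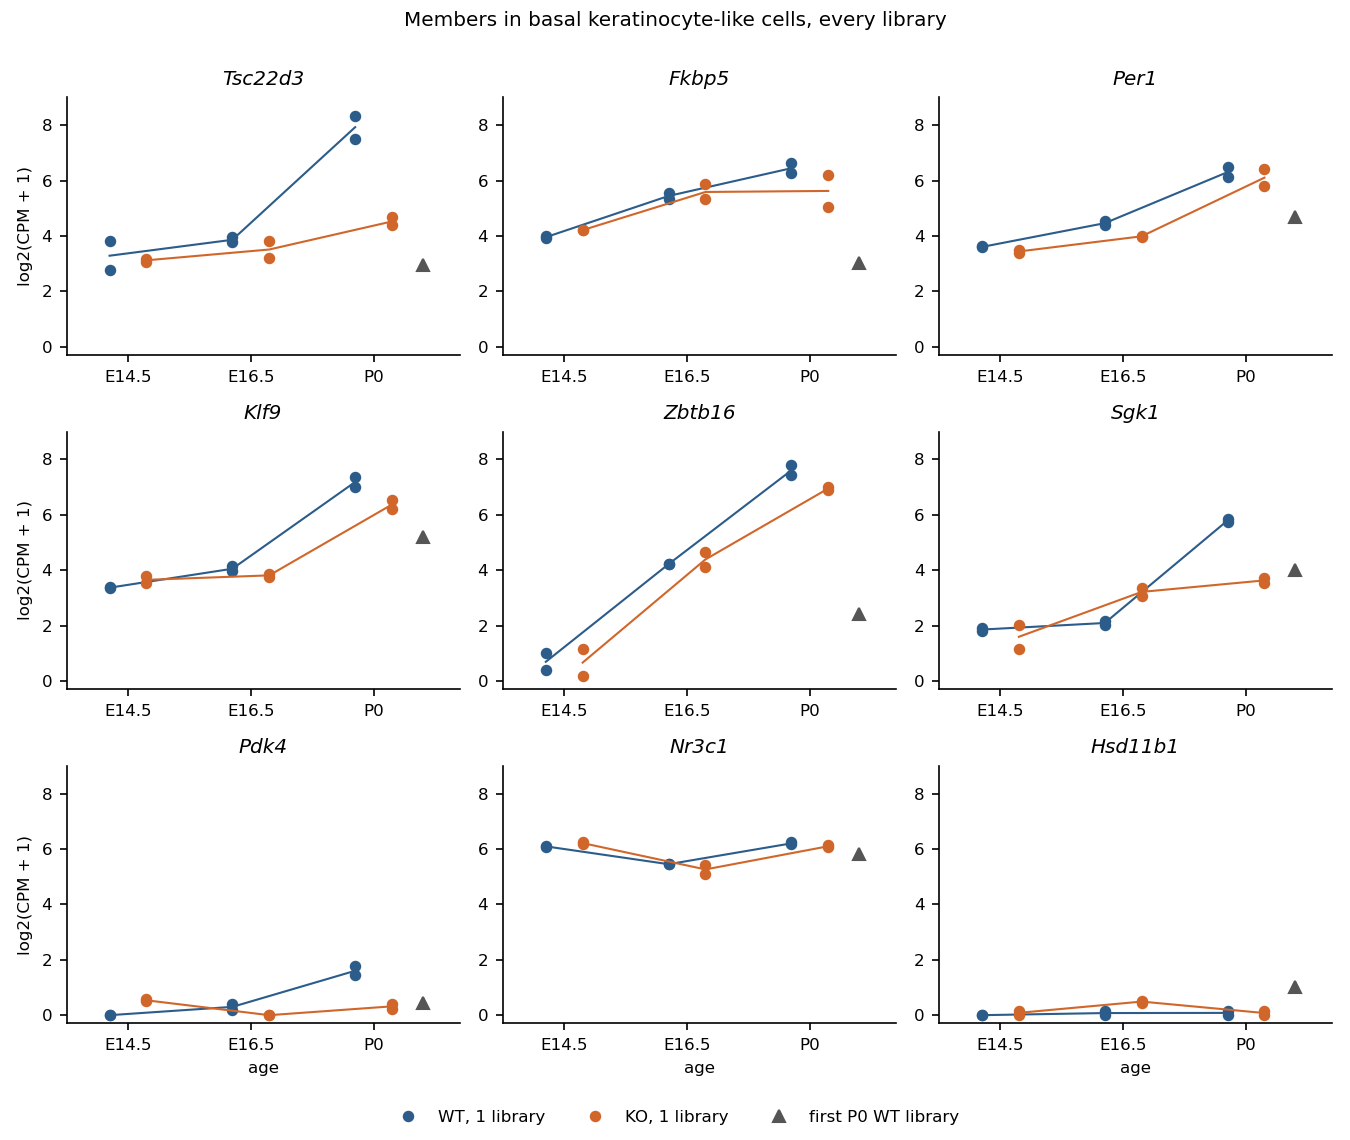
Level of each member in basal-like cells of every library, as log2(CPM + 1), by age and genotype, with 1 point a library, lines through the group means and the first P0 WT library as a triangle. Tsc22d3 lies between 5.79 and 14.4 CPM before birth in both genotypes and reaches 182 and 322 CPM in the later P0 WT libraries only.

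Between E14.5 and E16.5 tissue and dissociation were the same, and several members were already higher at the later age. The methods describe the animals of an experiment as littermates of the same pregnancy, so age and litter cannot be told apart in comparisons of ages. In mast cell-like cells of WT Tsc22d3 went from 20.8 and 11.1 CPM to 98.7 and 92.8 CPM, a log2 difference of 2.69 (SE 0.26). In suprabasal-like cells it went from 19.6 and 13.1 CPM to 107 and 97.0 CPM, a difference of 2.98 (SE 0.48), and in this suprabasal keratinocyte class the suprabasal markers summed to 14100 to 15500 CPM at E14.5 and 87800 to 106000 CPM at E16.5, whose part was not tested. In Langerhans or macrophage-like cells the difference was 1.90 (SE 0.27), in pericyte-like cells 1.31 (SE 0.13), in fibroblast-like cells 0.92 (SE 0.10), in muscle-like cells 0.87 (SE 0.13) and in endothelial-like cells 0.82 (SE 0.18). Immune, vascular, dermal and muscle classes were thus all higher at E16.5 for this gene. Basal-like cells overlapped, at 13 and 5.79 CPM against 14.4 and 12.7 CPM, and their difference of 0.76 lay at 1.31 without E14.5 WT library 1 and at 0.11 without library 2. Between these ages the Langerhans or macrophage-like class of WT also went from 581 and 493 to 1780 and 1110 CPM for its marker Cd74. For F13a1 it went from 890 and 1080 to 1650 and 1730 CPM. The part of this in the values of the class was not tested.

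Other members followed Tsc22d3 in some classes and parted from it in others. Fkbp5 differed by 2.63 (SE 0.25) in suprabasal-like, 1.69 (SE 0.37) in basal-like, 1.39 (SE 0.24) in Langerhans or macrophage-like and 1.32 (SE 0.32) in mast cell-like cells, but by -0.05 (SE 0.23) in endothelial-like cells. Klf9 differed by 2.64 (SE 0.37) in mast cell-like, 2.59 (SE 0.59) in Langerhans or macrophage-like and 1.28 (SE 0.20) in pericyte-like cells. Per1 differed most in muscle-like cells, from 3.63 and 2.23 CPM to 15.8 and 13.9 CPM, by 2.45 (SE 0.36). Sgk1 went both ways: in endothelial-like cells, where it was highest, it went from 83.2 and 105 CPM to 213 and 258 CPM, by 1.36 (SE 0.18), and in fibroblast-like cells from 24.8 and 25.8 CPM to 9.30 and 9.82 CPM, by -1.23 (SE 0.15). Zbtb16 was at 4.61 CPM or less in WT at E14.5 in every class, and it went from 2.38 and 2.73 CPM to 8.0 and 10.0 CPM in fibroblast-like cells, by 1.97 (SE 0.23), and from 0 in both libraries to 9.40 and 7.67 CPM in suprabasal-like cells. The receptor was lower at E16.5 in basal-like cells, by -0.54 (SE 0.12), and in suprabasal-like cells, where it went from 80.5 and 81.1 CPM to 42.6 and 36.0 CPM, by -0.74 (SE 0.21), and higher in muscle-like cells by 1.12 (SE 0.24). Over the 10 classes with both ages, libraries at E16.5 were higher without overlap in 9 for Klf9 and Zbtb16, in 8 for Tsc22d3 and Per1 and in 6 for Fkbp5. Zbtb16 passed the filter on low counts in only 6 of the 10. In mast cell-like cells it had 0 and 1 UMIs at E14.5 and 1 and 1 at E16.5. Among all genes that passed the filter, the share higher without overlap was 26.6% in basal-like, 21.4% in suprabasal-like, 21.3% in fibroblast-like and 26.7% in endothelial-like cells. It was 24.2% in pericyte-like, 20.2% in muscle-like, 25.3% in Schwann or neural-like, 25.7% in both mast cell-like and Langerhans or macrophage-like and 50.6% in erythroid-like cells. In WT 1 library at E14.5 and both at E16.5 carried the female transcripts, a difference whose part was not tested.

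**Figure D5:**
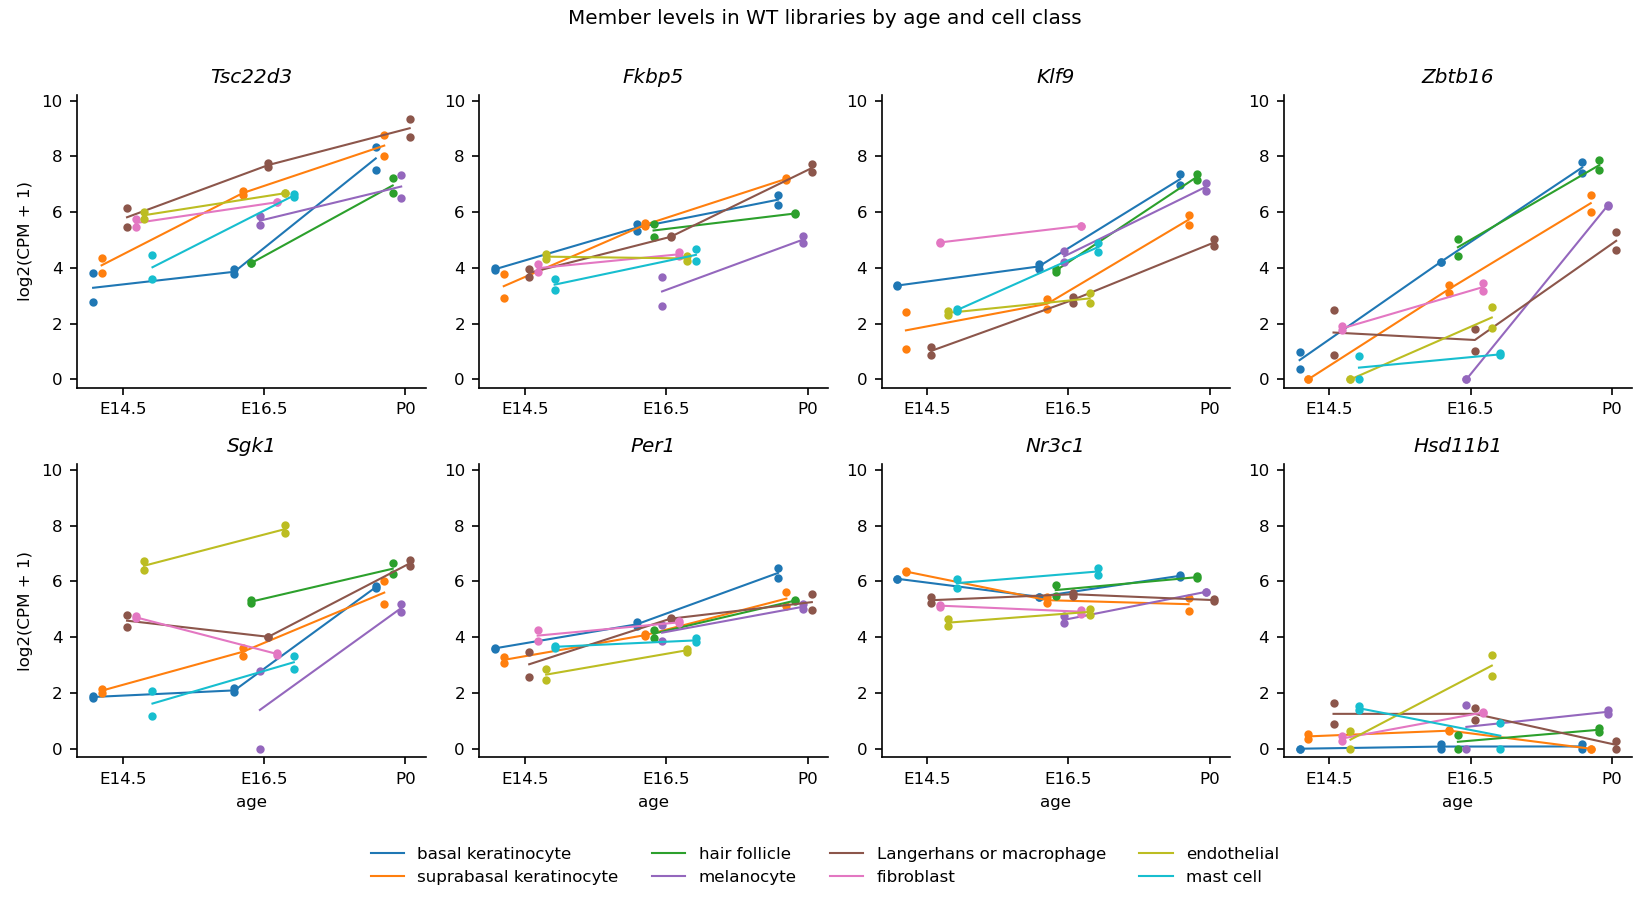
Levels of the members other than Pdk4 in WT by age in 8 cell classes, as log2(CPM + 1), with 1 point a later-chemistry library and lines through the group means. Sgk1 is highest in endothelial-like cells before birth, at 213 and 258 CPM at E16.5, and fibroblast-like, endothelial-like and mast cell-like cells have no P0 points because fewer than 50 cells were so named in each P0 WT library.

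In KO the difference between E16.5 and P0 was not the same for every member. Klf9 was higher at P0 in each of 5 classes, by 1.26 to 3.24, Per1 by 0.71 to 2.23 and Zbtb16 in basal-like cells by 2.65 (SE 0.21), from 16.3 and 24.3 CPM to 117 and 128 CPM. No share of all genes is set beside the count of classes, and nothing is read from it. These 5 classes hold fibroblast-like cells in place of the melanocyte-like cells of WT, of which E16.5 KO library 2 held 36. The lowest Klf9 and Per1 values were those of fibroblast-like cells, so the WT and KO ranges cover unlike sets of classes. Tsc22d3 was higher in basal-like cells by 1.15 (SE 0.36), from 8.13 and 13.2 CPM, lay lower in hair follicle-like cells by -0.33 (SE 0.28), from 18.7 and 13.5 CPM, and overlapped in suprabasal-like cells at 0.33 (SE 0.45). In Langerhans or macrophage-like cells it was higher by 1.04 (SE 0.25), from 152 and 150 CPM. In fibroblast-like cells, of which KO epidermis held 72 and 65, it was at 139 and 150 CPM at P0 and at 59.3 and 65.6 CPM at E16.5, a difference of 0.88 (SE 0.14). Sgk1 differed by 0.49 (SE 0.24) in basal-like and by -0.88 (SE 0.18) in hair follicle-like cells, where it went from 51.2 and 61.8 CPM to 26.7 and 24.6 CPM. Fkbp5 overlapped in basal-like, hair follicle-like and suprabasal-like cells, and its basal-like difference of 0.26 lay at -0.59 without P0 KO library 1 and at 0.73 without P0 KO library 2. In Langerhans or macrophage-like cells Fkbp5 differed by 1.41, from 37.3 and 40.7 CPM to 102 and 70.8 CPM. In fibroblast-like cells it went from 18.4 and 19.9 CPM to 50.4 and 21.6 CPM. The suprabasal-like value of Tsc22d3 lay at -0.52 without P0 KO library 2, at 0.91 without P0 KO library 1 and at 1.05 without E16.5 KO library 1. These values share the P0 KO libraries with the genotype difference at P0, and the WT and KO changes with age are set side by side without a test of their difference.

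At E16.5 no member passed the threshold between genotypes in any class. In edgeR's quasi-likelihood test with Benjamini-Hochberg adjustment 0 of 75 tests over 11 classes were called, beside 0.782% of all genes in these classes together, 7 had an unadjusted p under 0.05, and DESeq2 called 0 of 29 in 4 classes, with 4 under 0.05. The smallest adjusted p was 0.074, for Sgk1 in basal-like cells, which was at 7.39 and 9.27 CPM in KO and at 3.06 and 3.48 CPM in WT, a log2 difference of 1.26 (SE 0.28). This difference points the other way from that at P0, and in hair follicle-like cells KO was likewise above WT at E16.5, with 51.2 and 61.8 CPM against 36.1 and 39.5 CPM and an adjusted p of 0.981. It passed the threshold with no filter on low counts and with no integration of libraries before clustering, at 1.23 and 1.63. Tsc22d3 lay between -0.95 and 0.14 over the 11 classes, with KO below WT without overlap in 6, above in 1 and overlapping in 4. No share of all genes is set beside these counts, and nothing is read from them. In Langerhans or macrophage-like cells Tsc22d3 was at 152 and 150 CPM in KO and at 195 and 216 CPM in WT. In pericyte-like cells it was at 105 and 118 CPM against 147 and 136 CPM. In suprabasal-like cells it was at 69.1 and 34.7 CPM in KO and at 107 and 97.0 CPM in WT, a difference of -0.95 (SE 0.45, adjusted p 0.322). In fibroblast-like cells it was at 59.3 and 65.6 CPM against 81.2 and 80.3 CPM, a difference of -0.37 (SE 0.10, adjusted p 0.144). The suprabasal-like value was past the threshold with no filter on low counts, at -1.02, and lay at -1.67 without KO library 1. The suprabasal keratinocyte class at E16.5 also differed in make-up, with the suprabasal markers at 87800 to 106000 CPM in WT and 41000 to 64700 CPM in KO, the basal markers at 3720 to 4130 CPM and 7190 to 9180 CPM, and a cluster led by cornified envelope genes such as Lor holding 51 and 45 WT cells but 5 and 2 KO cells. The part of this was not tested. At this age 0.391% of all genes were past the threshold in basal-like cells. KO library 1 at E16.5 carried male transcripts and the other 3 E16.5 libraries female ones, so that sex also differs between the groups.

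At E14.5 too, no member passed the threshold. Of 61 tests over 9 classes edgeR called 0, beside 0.298% of all genes in these classes together, with 4 under an unadjusted p of 0.05, and DESeq2 called 0 of 22 in 3 classes, with 1 under 0.05. The smallest adjusted p was 0.0552, for Klf9 in fibroblast-like cells, at 47.6 and 43.6 CPM in KO and at 29.6 and 28.6 CPM in WT, a difference of 0.63 (SE 0.14). Tsc22d3 lay between -0.39 and 0.27 over the 9 classes and overlapped in 8 of them. Klf9 lay between -0.26 and 1.66, with KO above WT without overlap in 6, below in 1 and overlapping in 2. No share of all genes is set beside these counts, and nothing is read from them. In basal-like cells, where the P0 difference of Tsc22d3 was widest, that gene was at 7.36 and 8.03 CPM in KO and at 13 and 5.79 CPM in WT. With 2 libraries a group a p that misses the threshold does not show that the genotypes were alike. For Tsc22d3 in basal-like cells at E16.5 the difference was -0.43 with an SE of 0.39.

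A wider list of 46 other genes known to be induced by the receptor, of which 45 were found in the matrices, was read in the same fits. It was compiled with results of these data known, so it is not independent evidence of direction. In P0 basal-like cells 20 of the 37 that passed the filter fell in KO and 1 rose, with a median log2 difference of -0.95, beside 18.4% of all genes falling and 18.3% rising around a median of 0. In hair follicle-like cells 18 of 37 fell and 5 rose beside 13.2% and 15.9%, and in inner root sheath-like cells 13 of 34 fell and 2 rose beside 6.97% and 8.36%. Suprabasal-like cells had 7 of 36 falling and 3 rising, beside 12.4% and 12.3%, with a median of -0.23, and without WT library 2 only 4 fell. Melanocyte-like cells had 7 of 38 falling and 2 rising, beside 3.61% and 4.26%, but 0 fell without KO library 1, 0 without KO library 2 and 15 without WT library 2. Langerhans or macrophage-like cells had 8 of 36 falling and 4 rising, beside 5.45% and 6.45%, and without KO library 1 5 fell. T cell-like cells had 1 of 22 falling and 1 rising, beside 0.55% and 0.629%. Anxa1, the anti-inflammatory annexin A1, fell in basal-like cells from 661 and 577 CPM in WT to 225 and 205 CPM in KO, by -1.53 on the log2 scale (SE 0.16, adjusted p 5.38e-06 in edgeR), though the first P0 WT library was at 658 CPM. Fbxo32, a ubiquitin ligase of muscle wasting, fell by 1.47 on the log2 scale (adjusted p 2.03e-05), with 15.6 CPM in the first library, and the metallothionein Mt1 by 1.26 on that scale (adjusted p 7.7e-05). The gene that rose was Cdkn1c, the cell cycle inhibitor p57, at 61.9 and 48.6 CPM in KO against 19.8 and 19.2 CPM in WT, and it rose in suprabasal-like cells too, from 2.85 and 1.13 CPM to 57.1 and 70.4 CPM. Sesn1, Foxo3 and Anxa1 fell in suprabasal-like cells, by 1.24, 0.91 and 0.84 on the log2 scale. The call for Sesn1 was lost without WT library 2, at -0.85, and that for Anxa1 without either WT library or without KO library 1, at -0.43, while its value without KO library 2 was -1.42.

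The other gene groups were read in the same fits at P0, where 18.4% of all genes fell and 18.3% rose in basal-like cells, 13.2% and 15.9% in hair follicle-like cells and 12.4% and 12.3% in suprabasal-like cells. Of 17 tested genes of receptor and hormone handling 8 fell and 4 rose in basal-like cells, and Fkbp4, the co-chaperone FKBP52 that favours receptor transport, rose from 64.8 and 68.8 CPM in WT to 158 and 181 CPM in KO, by 1.33 (SE 0.11, adjusted p 6.24e-07 in edgeR). The first P0 WT library had 246 CPM of Fkbp4. Of 13 clock genes 7 fell in basal-like cells and 0 rose, among them Cry1 from 18.5 and 23.6 CPM to 8.88 and 8.60 CPM. Of 13 genes of fatty acid oxidation 3 fell and 0 rose. Of 6 inflammatory genes the receptor represses 1 rose and 0 fell. The stress genes of dissociation, of which 15 were tested, rose and fell in equal number in basal-like cells, 4 each, with Fosb and Jun rising by 1.85 and 0.71, whereas in hair follicle-like cells 9 rose and 0 fell and in suprabasal-like cells 7 rose and 0 fell, Fosb, Ier3, Jun and Atf3 by 1.98, 1.63, 1.05 and 1.04. Without WT library 2 Fosb was at 2.47 in basal-like and at 2.59 in suprabasal-like cells. Crebbp, a coactivator of the receptor, and Cry1 fell in suprabasal-like cells by 0.62 and 1.02 on the log2 scale, the call for Crebbp being lost without WT library 2, at -0.60.

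With age in WT more genes of the wider list rose than fell. From E16.5 to P0, 23 of 37 rose and 5 fell in basal-like cells, with a median of 1.39, beside 30.1% and 30.7% of all genes. In hair follicle-like cells 21 rose and 6 fell of 37, beside 23.7% and 22.5%, and in suprabasal-like cells 19 rose and 5 fell of 36, beside 21.4% and 21.3%, but 11 rose there without E16.5 WT library 2 and 11 without P0 WT library 1. Fbxo32, the thioredoxin inhibitor gene Txnip, Foxo1 and the glutamine synthetase gene Glul rose by 4.12, 3.35, 3.31 and 2.90 in basal-like cells. Cdkn1c and Rgs2 fell by 4.01 and 2.35 on the log2 scale, and the receptor co-chaperones Fkbp4, Stip1 and Ptges3 by 2.11, 1.37 and 1.34. In suprabasal-like cells Txnip, Glul, Mt2 and Ddit4 rose by 3.94, 3.02, 2.02 and 1.68, and Cdkn1c fell by 6.36 on that scale, or by 5.76 to 7.13 with a library left out. Outside the list, the co-chaperones Fkbp4 and Stip1 fell there by 1.66 and 1.40 on that scale, and of the stress genes Jun and Fosb fell by 1.22 and 0.92 while Hspa1b rose by 1.87. The call for Fosb was lost without E16.5 WT library 1, at -0.58, and without P0 WT library 1, at -0.51, and its value without P0 WT library 2 was -1.55. In KO 18 of 37 rose and 6 fell in basal-like cells from E16.5 to P0, beside 20.9% and 20.3% of all genes, with Txnip, Fbxo32, Foxo1 and Nfkbia up by 2.64, 2.10, 2.07 and 1.67 and Cdkn1c and Rgs2 at -2.32 and -1.50. Without E16.5 KO library 1 only 11 rose, without P0 KO library 2 Nfkbia was at 0.90, and without E16.5 KO library 2 Fbxo32 and Foxo1 were at 2.7 and 2.78. From E14.5 to E16.5 in WT 8 of 37 rose and 3 fell in basal-like cells, beside 9.63% of all genes rising and 6.44% falling, with the cell cycle inhibitor Cdkn1a and Rgs2 up by 3.21 and 2.14 and the metallothionein Mt2 and Glul at -0.88 and -0.81, on the log2 scale. Leaving out E14.5 WT library 1, E14.5 WT library 2 or E16.5 WT library 1 left 5, 4 and 5 rising, and the calls for Mt2 and Glul were lost without E14.5 WT library 1, at -0.59 and -0.64, or without either E16.5 WT library.

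Before birth few listed genes passed the threshold between genotypes. At E16.5, 5 of 15 stress genes fell in basal-like cells of KO and 0 rose, beside 0.184% of all genes falling, among them Fos from 776 and 873 CPM to 441 and 473 CPM, by -0.92 (SE 0.12, adjusted p 0.00249 in edgeR), with Atf3, Jun and Egr1 at -1.0, -0.90 and -0.84. Of these calls only that for Fos held with each library left out in turn, Atf3 being lost without WT library 1 or KO library 1, Jun without KO library 2 and Egr1 without either WT library or KO library 1. Of the induced list 1 of 37 fell there, Zfp36, an mRNA-destabilising protein gene that is also an immediate early gene, from 106 and 94.7 CPM to 42.5 and 51.2 CPM, a call lost without KO library 1. In suprabasal-like cells Jun, Fos and Foxo3 fell by 0.99, 0.65 and 1.20 on the log2 scale, beside 2.15% of all genes falling. At E14.5 the suprabasal-like cells had 1 stress gene past the threshold, Atf3, which rose by 1.06, beside 0.331% of all genes rising, and 0 of 36 induced genes. Each of these 4 suprabasal-like calls was lost with any 1 of the libraries compared left out. The difference between these groups of genes was not tested.

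Over the 28 points of 7 classes in the 4 later P0 libraries, some members had like levels across classes and libraries. The Pearson correlation of log2(CPM + 10) was 0.89 between Klf9 and Zbtb16, 0.82 between Tsc22d3 and Fkbp5, 0.81 between Zbtb16 and Nr3c1 and -0.07 between Tsc22d3 and Klf9. In WT Klf9, Zbtb16 and Nr3c1 had their highest means in hair follicle-like and basal-like cells among these classes, and Tsc22d3 and Fkbp5 in Langerhans or macrophage-like and suprabasal-like cells. Among 4705 genes the closest to Tsc22d3 were Abi1 (0.883), Xbp1 (0.881), Sh3glb1 (0.853), Tsc22d4 (0.852) and Tmem50a (0.847). The closest to Fkbp5 were Abi1 (0.865), Rnf149 (0.843), Xbp1 (0.828), Tsc22d4 (0.825) and Hk2 (0.823), so that Abi1, Xbp1 and Tsc22d4 stood in both sets. These values mix differences between classes with those between libraries. With each class centred on its mean they were 0.834 for Abi1, 0.803 for Xbp1, 0.928 for Sh3glb1, 0.781 for Tsc22d4 and 0.883 for Tmem50a with Tsc22d3, and 0.791 to 0.894 with Fkbp5, Tsc22d4 being highest, so the order changed. The points share libraries and depth, and the correlations are descriptions with no test.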

How the data were processed

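Single-cell 3' RNA-seq of mouse back skin was measured in 13 libraries. The authors deposited UMI counts per gene and cell, made with Cell Ranger on mm10. The submitters' processing notes name version 1.3.1, and the methods name another. Sequencing depth kept was 49195602 to 105580896 UMIs a library, and Poisson intervals cover counting error only.

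Cells with 600 to 4800 genes before birth or 900 to 7700 at P0 and under 10% mitochondrial UMIs were kept. They were clustered by age in Seurat 5.3.0 (3000 variable genes, 30 components, 20 neighbours, resolution 1.0), the first P0 WT library apart, with listed genes and Grhl3 left out. Doublets were removed only in an alternative, as the 6% of cells with the highest scores. Classes were named from fixed marker lists, and clusters failing those markers stayed unnamed. UMIs were summed per library and class of at least 50 cells and fitted over the libraries of the later chemistry in edgeR 4.0.16 (TMM, quasi-likelihood, filterByExpr, Benjamini-Hochberg adjusted p under 0.05, SE from the F statistic). The fit was tested on simulated counts. P-values measure the spread between libraries of different littermates. An exact permutation test of 2 against 2 cannot go under 0.333.

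The members and gene lists were chosen with earlier results of these data known. Named list genes were up to 5 a direction, by size of log2 fold change, in basal-like and suprabasal-like cells, past the threshold, with mean log2 CPM of 4 or more and no overlap, and 1 gene so chosen is not reported here. Alternatives were run for 5 classes, among them DESeq2 1.42.0, RLE scaling, no filter and leaving out each library.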

Additional observations from a re-analysis of the deposited data

Results flagged for a closer look

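Hsd11b1 in the first P0 WT library, which enters no comparison between groups, was above both later P0 WT libraries. It was at 345 CPM in T cell-like cells, at 6.06 CPM over all cells, at 1.02 CPM in basal-like cells and at 1.51 CPM in hair follicle-like cells.

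Among members with 50 or more UMIs over both genotypes of a class at each age, for 15 pairs of ages the KO libraries lay on opposite sides of the WT libraries at the 2 ages. The share of all genes so placed was not counted, so nothing is read from the number of pairs. These differences between ages were not tested, and each is given as the log2 fold change of KO to WT at the later age minus that at the earlier age. For Sgk1 it was -3.535 in basal-like cells and -2.192 in hair follicle-like cells between P0 and E16.5, and in Langerhans or macrophage-like cells -1.483 between P0 and E16.5 and 0.9716 between E16.5 and E14.5. For Klf9 it was -1.377 in hair follicle-like cells between P0 and E16.5, -1.072 in basal-like cells between P0 and E14.5, -0.5408 in basal-like cells between E16.5 and E14.5 and -0.7286 in fibroblast-like cells between E16.5 and E14.5. For Fkbp5 it was -1.243 between P0 and E16.5 and -1.494 between P0 and E14.5 in Langerhans or macrophage-like cells, and -0.8941 in basal-like cells between P0 and E14.5. For Per1 between E16.5 and E14.5 it was -1.258 in Langerhans or macrophage-like cells and -0.9599 in pericyte-like cells. For Nr3c1 in basal-like cells it was -0.1759 between P0 and E14.5 and -0.3186 between E16.5 and E14.5.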

How the results depend on the processing

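In basal-like cells 20 genes of the wider induced list were lower in KO at P0 (beside 18.4% of all genes), and 19 to 23 under the alternatives. Higher at P0 than at E16.5 in WT were 23 (beside 30.1%), and 19 to 24. Higher at E16.5 than at E14.5 in WT were 8 (beside 9.63%), but 5 with DESeq2, 5 at equal depth and 4 to 6 with a library left out, the 4 without E14.5 WT library 2. Higher at P0 than at E16.5 in KO were 18 (beside 20.9%), and 11 to 17 with a library left out, the 11 without E16.5 KO library 1. Over the 5 classes rerun, 0 member values were called between genotypes at E14.5 under every alternative run, and 0 at E16.5, but 2 with no filter on low counts and 1 with no integration. Sgk1 in WT hair follicle-like cells from E16.5 to P0 went from 1.31 to -0.092 at clustering resolution 0.6. The cause was not tested. Tsc22d3 in basal-like cells of the first P0 WT library was at 6.76 CPM, at 6.09 with resolution 0.6 and at 6.74 with a mitochondrial limit of 5%. It held no cell above the upper gene limit, so lifting that limit gives no other value.

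Libraries with the same number did not deviate together (correlations -0.14 to 0.07, 2 pairs). With the replicate block the P0 genotype count of induced genes was 21, the other counts were as given, and 4 list genes no longer passed: Atf3 at E14.5 (1.06) and Foxo3 (-1.17), Jun (-0.99) and Fos (-0.65) at E16.5, all in suprabasal-like cells. With crossed numbers, chosen after seeing the data, the counts were 0 members at E16.5 and 18 induced genes for KO.

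Over all genes, calls at P0 between genotypes went at equal depth from 4606 to 2769 in basal-like, from 2762 to 1153 in suprabasal-like, from 3637 to 1633 in hair follicle-like and from 966 to 118 in melanocyte-like cells. With the block melanocyte-like calls were 507, and with only the libraries compared suprabasal-like calls were 1076 and Langerhans or macrophage-like calls 687 of 1326. At E16.5 with no filter, basal-like calls went from 49 to 274 and suprabasal-like calls from 323 to 894, or to 191 with the block. At E14.5 suprabasal-like calls went from 67 to 1276 with only the libraries compared and to 21 with the block.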
